A study of Mus musculus with 8 samples.

Results

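Glycolysis and the pentose phosphate pathway were described through 39 genes of glucose uptake, glycolysis, lactate export, pyruvate entry into mitochondria and the pentose phosphate route. The members were named by function, though with earlier results of these data known. They were matched by gene name to the deposited table of 47493 genes. All 39 were found, and all 39 had a mean of at least 1 FPKM over the 8 libraries, so none was lost to the filter that left 12166 genes for testing. FPKM, the number of sequenced fragments scaled to transcript length and to library depth, is a level per transcript length, so levels can be set side by side between genes.

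Glycolysis splits glucose into pyruvate in the cytosol, gains ATP without oxygen, and feeds pyruvate to lactate dehydrogenase or, through the pyruvate dehydrogenase complex, to the mitochondrion. The pentose phosphate pathway branches off after the first phosphorylation of glucose, where its oxidative arm makes NADPH and its non-oxidative arm makes ribose phosphate for nucleotides. T cells raise glucose uptake and glycolysis when they are activated, and most steps have several isozymes, which are separate genes that encode enzymes for the same reaction.

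The libraries came from endogenous CD8+ T (en-T) cells of 4 female C57BL/6 mice, 6 to 8 weeks of age, that carried B16F10 melanoma. All 4 mice had the same treatment: 200000 tumor cells on day 0, cyclophosphamide (300 mg/kg) on day 3, 2000000 Thy1.1+ Pmel-1 T cells on day 5 with 10000 IU of IL-2 daily for 3 days, and 200 μg of an anti-CD4 antibody on days 10, 17 and 24. On day 25, Thy1.1-negative CD8+ cells of inguinal lymph nodes and spleen were purified with beads, so the transferred Pmel-1 cells were depleted from both groups. Cells that bound an IL-18Rα antibody were then held back magnetically (IL-18Rα-hi, n = 4), and those that ran through the column were the control (flow-through, n = 4). Each mouse gave 1 library of each fraction, and same-numbered libraries were taken as the same mouse. The groups thus differed by the column and not by treatment, and no untreated mouse is compared here. *Il18r1*, the gene of the selected receptor chain, was at 30.6 ± 6.96 FPKM (SD) in the flow-through libraries against 110.8 ± 3.87 FPKM in the IL-18Rα-hi fraction, so the flow-through still held some of this transcript.

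Summed FPKM ran from 656715 to 711678 per library, the estimated depth from 14600000 to 17700000 fragments, and 11706 to 12288 genes per library reached 1 FPKM. The flow-through library of mouse 1 stood apart. Its 8 CD8 T-cell genes (*Cd3d*, *Cd3e*, *Cd3g*, *Cd247*, *Cd2*, *Lck*, *Cd8a* and *Cd8b1*) summed to 1337 FPKM, while those of the other mice summed to between 2144 and 2548 FPKM in the flow-through and all 4 to between 2542 and 2724 FPKM in the IL-18Rα-hi libraries. Its 13 erythroid genes summed to 4089 FPKM, while those of the other mice summed to between 1220 and 2226 FPKM in the flow-through and all 4 to between 339.3 and 2032 FPKM in the IL-18Rα-hi libraries. Both fractions thus held erythroid transcripts, although a listed gene such as *Tfrc* is also made by dividing T cells. None of the 8 CD8 T-cell genes was called (1 higher with the mouse as a block). Of 5 melanoma genes none reached a mean of 1 FPKM, and all 8 libraries list *Tyr*, *Tyrp1*, *Mlana* and *Dct* at 0.

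Promoter sequence is shown for members on either side of the comparison, because hypoxia-inducible factor 1 (core letters ACGTG) and Myc (the E-box CACGTG, which contains that core) are textbook regulators of glycolytic genes and their own transcripts differed between the fractions, as given further on. Each line is an 80-base stretch upstream of a transcription start, 5′ to 3′ on the strand of the gene, from RefSeq on GRCm38.p6, the sequence of mm10. Capitals mark ACGTG or its reverse complement CACGT, and both together where they form CACGTG.
Slc2a1, chr4:119108665-119108744, plus strand: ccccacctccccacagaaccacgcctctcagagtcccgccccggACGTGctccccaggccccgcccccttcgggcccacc
Pfkfb3, chr2:11553948-11554027, minus strand: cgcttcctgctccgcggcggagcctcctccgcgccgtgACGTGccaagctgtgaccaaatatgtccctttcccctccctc
Pfkfb3, chr2:11502101-11502180, minus strand: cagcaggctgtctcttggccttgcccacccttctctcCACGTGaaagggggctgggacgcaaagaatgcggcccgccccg
Pgk1, chrX:106186922-106187001, plus strand: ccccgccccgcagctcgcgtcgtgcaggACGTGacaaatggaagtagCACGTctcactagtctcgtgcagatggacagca
Pgam1, chr19:41911719-41911798, plus strand: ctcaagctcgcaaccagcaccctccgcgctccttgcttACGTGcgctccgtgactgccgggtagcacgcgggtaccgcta
Slc16a3, chr11:120948987-120949066, plus strand: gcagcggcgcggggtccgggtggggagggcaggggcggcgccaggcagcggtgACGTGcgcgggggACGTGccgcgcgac
Slc16a1, chr3:104638427-104638506, plus strand: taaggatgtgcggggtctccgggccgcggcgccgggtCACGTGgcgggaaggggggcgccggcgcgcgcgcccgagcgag
Pdk2, chr11:95041455-95041534, minus strand: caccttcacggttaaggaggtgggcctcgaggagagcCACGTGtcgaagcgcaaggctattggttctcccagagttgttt
Both strands of the 250 bases before each start were searched. ACGTG was found before at least 1 start of 15 of the 38 members with a promoter entry (39.5%), against 18.5% of 27025 genes with a promoter entry. The longer form ACGTGC was found in 7 of 38 members (18.4%) and in 5.6% of all genes, and CACGTG in 5 of 38 (13.2%) and in 6.9%. The shares of all genes include genes below 1 FPKM here, whereas all members reached it. A gene with several starts also had more chances of a match. They are thus no matched background, and no test of enrichment was run. Among the 9 members called higher in the IL-18Rα-hi fraction, 5 held ACGTG (*Slc2a1*, *Pfkfb3*, *Pgk1*, *Pkm* and *Slc16a3*), as did 1 of the 5 called lower (*Pdk2*) and 9 of the 24 not called. ACGTGC stood in 4 of 9, 0 of 5 and 3 of 24. CACGTG stood in 1 of 9 (*Pfkfb3*), 1 of 5 (*Pdk2*) and 3 of 24 (*Ldha*, *Pfkm* and *Slc16a1*). The stretches above are a selection. Members with a match that are not shown include *Pkm*, called higher, with ACGTG, and *Ldha*, not called, with ACGTGC and CACGTG. These are matches of letters and no measure of binding. *Slc2a3* had no promoter entry.

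The fractions were compared on log2(FPKM + 1) with limma over all 12166 genes, and a gene is called where its Benjamini-Hochberg adjusted p was under 0.05. A log2 fold change is the IL-18Rα-hi mean minus the flow-through mean on that scale, and p-values rest on the spread among 4 mice. Of the 39 members, 9 were called higher in the IL-18Rα-hi fraction (23.1%, where 14.1% of all genes tested were) and 5 were called lower (12.8%, where 13.7% of all genes were). The median log2 fold change was 0.06 over the members and -0.02 over all genes tested. The 9 higher members were *Slc2a1*, *Pfkp*, *Pfkfb3*, *Aldoc*, *Gapdh*, *Pgk1*, *Eno1*, *Pkm* and *Slc16a3*, which all belong to glucose uptake, the glycolytic chain or lactate export. The 5 lower members were *Hk1* and *Eno3*, also of the glycolytic chain, *Pdk1* and *Pdk2* of pyruvate entry, and *Pgls* of the pentose phosphate route. Of the 39 members, 32 lie outside the pentose phosphate route.

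With the mouse as a block, all 14 calls remained and 10 were added, giving 12 higher (22.2% of all genes were called higher in that fit) and 12 lower (22.7% of all genes). The 3 added higher members were *Hk3*, *Pgam1* and *Pdk3*, and the 7 added lower members were *Pfkm*, *Tpi1*, *Slc16a1*, *Pdha1*, *Pdhb*, *Tkt* and *Rpia*. In 9 members every IL-18Rα-hi library was above every flow-through library (16.4% of all genes), and in 6 every IL-18Rα-hi library was below (15.9% of all genes). Within mice, 15 members were higher and 14 lower in the IL-18Rα-hi library of 4 of 4 mice, as were 29.2% and 30.6% of all genes.

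**Figure D1:**
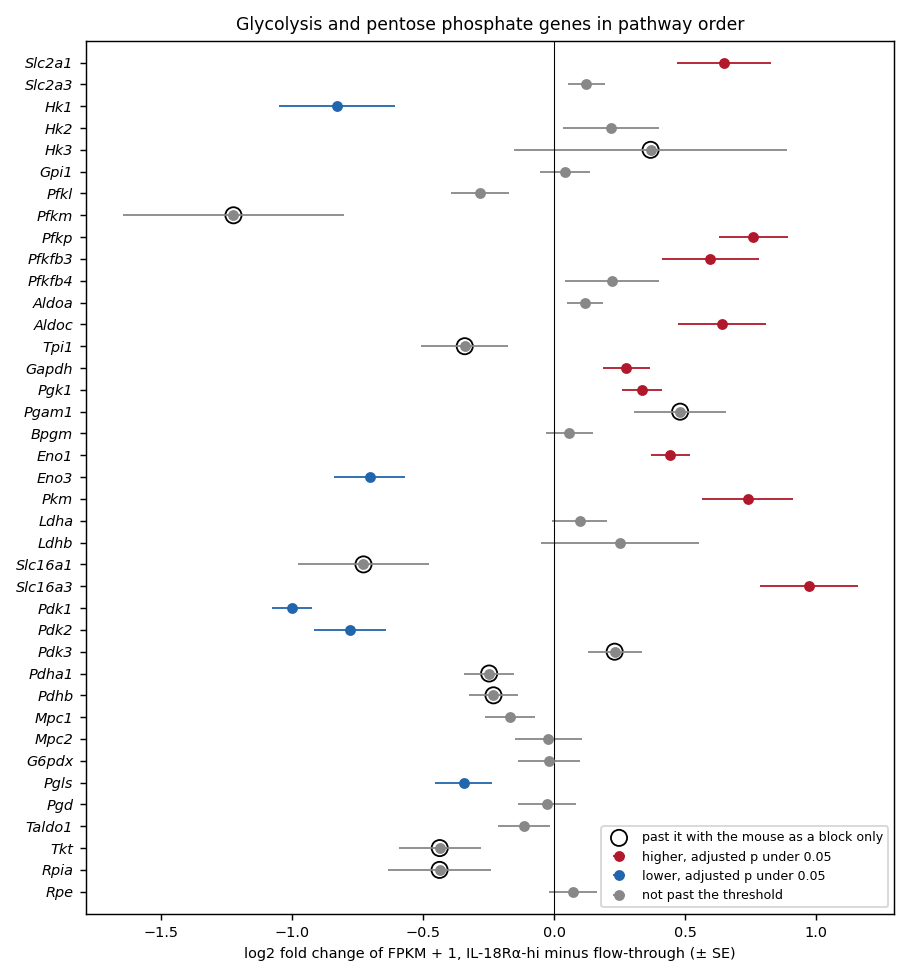
Log2 fold change of each of the 39 members (x axis, difference of mean log2(FPKM + 1), IL-18Rα-hi minus flow-through, with its SE) in pathway order, n = 4 libraries per fraction. Red points are the 9 members called higher, blue points the 5 called lower, grey points the 25 not called, and rings mark the 10 called only with the mouse as a block. The glycolytic chain from *Slc2a1* to *Slc16a3* holds points on both sides of 0. T-cell scaling, under which *Gapdh* and *Pgk1* were at -0.06 and -0.0023, is not drawn.

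When every library was scaled to the same mean level of the 8 CD8 T-cell genes, the median over all genes moved from -0.02 to -0.32 in log2 fold change, and the shares of all genes called fell to 4.29% higher and 7.62% lower. The scaling factor was 1.737 for flow-through library 1 and 0.9098 to 1.084 for the other flow-through libraries. It was 0.8536 to 0.9097 for the IL-18Rα-hi libraries. Flow-through library 1 was thus raised the most, and its factor multiplied every gene, erythroid genes included. After this scaling 0 members were called higher and 3 were called lower (*Eno3*, *Pdk1* and *Pdk2*), and the members' median was -0.26. At an unadjusted p under 0.05, 5 members were higher (12.8%, where 7.36% of all genes were) and 9 lower (23.1%, where 27.4% of all genes were) on that scale. When all 22789 genes with any FPKM above 0 were tested, 6 members were called higher (7.32% of all genes) and 3 lower (5.63% of all genes). Without both libraries of mouse 1, an alternative chosen after seeing the data, 8 members were called higher (14.7% of all genes) and 6 lower (12.8% of all genes). *Aldoc* and *Pgls* were then not called, while *Pfkm* (log2 fold change -1.15, limma adjusted p = 0.032) and *Slc16a1* (-0.68, limma adjusted p = 0.0392) were.

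Glucose enters T cells through GLUT1 and GLUT3, facilitative transporters encoded by *Slc2a1* and *Slc2a3*. *Slc2a1* (ENSMUSG00000028645; chromosome 4, 119108711 to 119137983, plus strand) was at 5.80, 11.5, 9.87 and 10.6 FPKM in flow-through libraries 1 to 4 and at 14.3, 15.3, 14.7 and 15.6 FPKM in IL-18Rα-hi libraries 1 to 4. The fractions did not overlap, the lowest library was the flow-through of mouse 1, and the IL-18Rα-hi libraries were closely alike. *Slc2a1* rose from 9.45 ± 2.53 to 14.96 ± 0.587 FPKM (limma log2 fold change of 0.65 with an SE of 0.18, adjusted p = 0.0287) and was higher in 4 of 4 mice. The call was lost without flow-through library 3 (adjusted p = 0.0591) or any 1 of IL-18Rα-hi libraries 1 to 4 (0.0513, 0.0726, 0.0646 and 0.0732), and over the alternatives the adjusted p ran from 0.00513 to 0.121.

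*Slc2a3* was the more abundant transporter, at 29.9, 26.9, 29.1 and 26.5 FPKM in the flow-through libraries against 30.96, 29.2, 31.4 and 31.2 FPKM in the IL-18Rα-hi libraries. The ranges overlapped and limma gave a log2 fold change of 0.12 (SE 0.07, adjusted p = 0.21), which became -0.21 under T-cell scaling. Summed over both transporters, every IL-18Rα-hi library (44.4 to 46.8 FPKM) was above every flow-through library (35.7 to 38.98 FPKM).

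**Figure D2:**
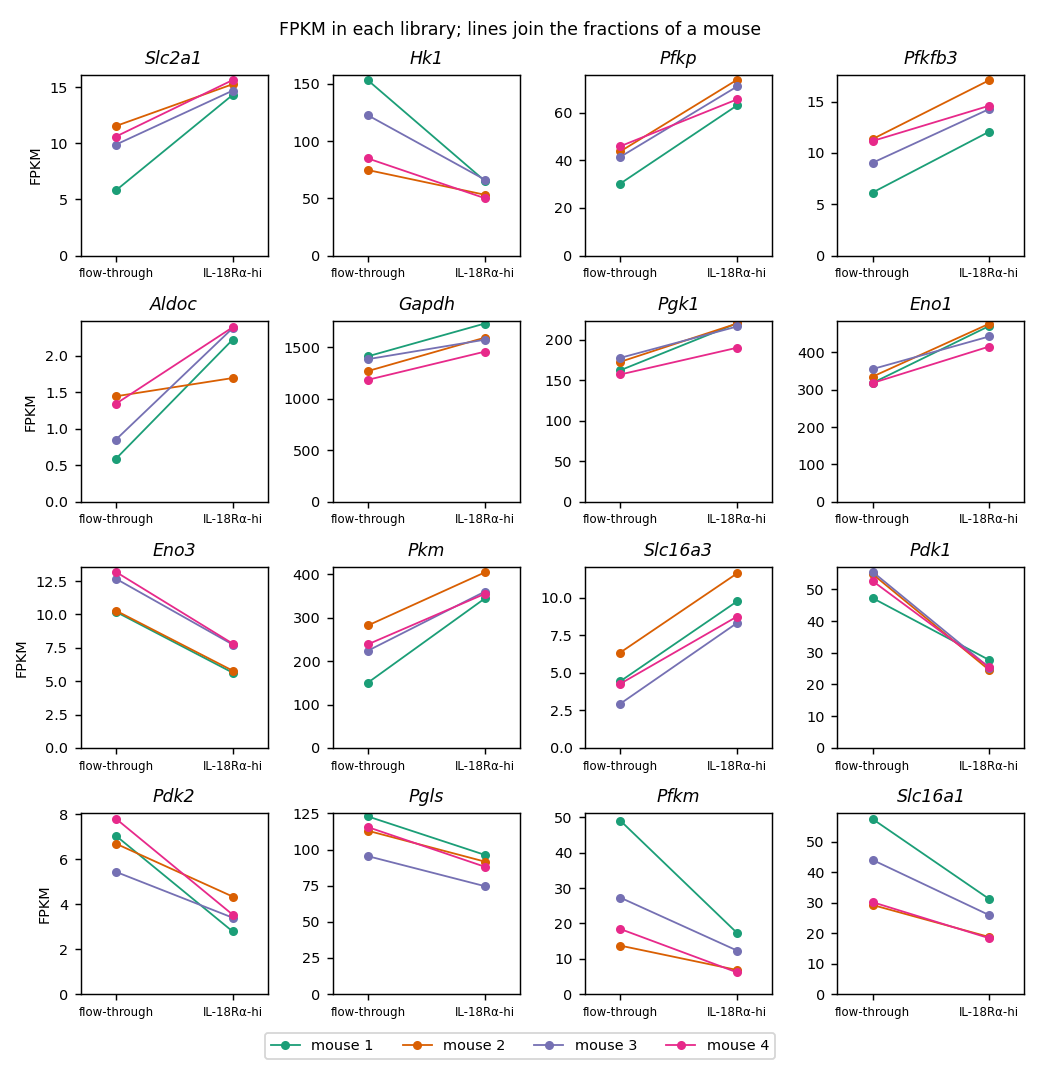
FPKM (y axis, linear from 0, separate scale per panel) of the 14 called members and of *Pfkm* and *Slc16a1* in both fractions, with 1 line per mouse. Lines rise in all 4 mice for the 9 members called higher and drop in all 4 for the 5 called lower, and for *Pfkm* and *Slc16a1* the mice start from levels as far apart as 49.1 and 13.7 FPKM.

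Hexokinases phosphorylate glucose and trap it in the cell. *Hk1* (ENSMUSG00000037012; chromosome 10, 62268855 to 62379908, minus strand), the widely expressed form bound to mitochondria, made up most of the hexokinase transcript. It stood at 153, 74.7, 122 and 84.8 FPKM in the 4 flow-through libraries and 65.1, 53.1, 66.3 and 50.1 FPKM in the 4 IL-18Rα-hi libraries. No IL-18Rα-hi library reached the lowest flow-through library, and the flow-through of mouse 1 held more than any other. *Hk1* fell from 109 ± 35.9 to 58.7 ± 8.25 FPKM (limma log2 fold change of -0.83 with an SE of 0.22, adjusted p = 0.0254), and was lower in 4 of 4 mice. Without flow-through library 3 or IL-18Rα-hi libraries 2 or 4 the adjusted p was 0.0738, 0.0711 and 0.0714, and it ran from 0.00217 with the mouse as a block to that 0.0738.

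The erythroid sum and *Hk1* shared the order of mice in the flow-through but not in the IL-18Rα-hi fraction. Of 13 erythroid genes, 0 were called higher and 3 lower (*Gata1*, *Epor* and *Car1*; 9 lower with the mouse as a block), none was at 0 in either group mean, and their sum was highest in mouse 1 and next highest in mouse 3 in both fractions. *Hk1* was highest in mouse 1 and next in mouse 3 in the flow-through, and highest in mouse 3 and next in mouse 1 in the IL-18Rα-hi fraction. Their part in the result was not tested, and in bulk samples fewer cells of a type and less RNA per cell cannot be told apart.

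*Hk2*, the inducible form, was low, at 3.57, 5.49, 4.88 and 4.71 FPKM in the flow-through libraries against 3.74, 7.29, 5.41 and 6.24 FPKM in the IL-18Rα-hi libraries. It was a little higher in 4 of 4 mice, but the fractions overlapped (log2 fold change 0.22, SE 0.18, limma adjusted p = 0.401) and the value was -0.06 under T-cell scaling.

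*Hk3*, a hexokinase known from myeloid cells, was at 5.25, 25.7, 8.83 and 13.3 FPKM in the flow-through libraries against 6.72, 31.3, 12.7 and 18.1 FPKM in the IL-18Rα-hi libraries. The mice differed far more than the fractions, with mouse 2 highest and mouse 1 lowest in both. Limma gave a log2 fold change of 0.37 (SE 0.52, adjusted p = 0.624), and with the mouse as a block, which removes the differences between mice, the adjusted p was 0.00747. The sum of the 12 granulocyte genes took the same order of mice. It was 3429 FPKM (flow-through) and 3900 FPKM (IL-18Rα-hi) in mouse 2 and 598.5 and 623.4 FPKM in mouse 1. Not every gene did so, as *S100a9*, *Ngp*, *Camp* and *Ltf* were highest in mouse 3 in the flow-through. Of the 11 granulocyte genes tested, 0 were called in either direction (4 higher and 1 lower with the block) and none was at 0 in either group mean, and their part in the *Hk3* values was not tested.

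**Figure D3:**
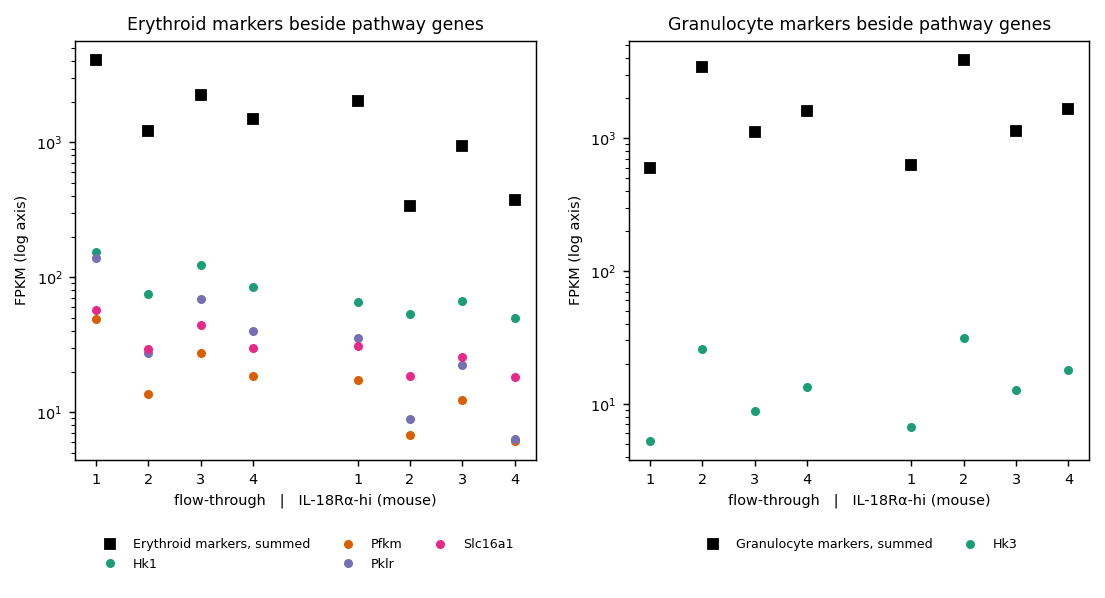
Summed FPKM of erythroid markers with *Hk1*, *Pfkm*, *Pklr* and *Slc16a1* (left) and of granulocyte markers with *Hk3* (right) in each library, on a log axis, with mice 1 to 4 in order within each fraction. On the left the flow-through of mouse 1 is highest in all 5 series, and on the right mouse 2 is highest and mouse 1 lowest in both fractions for both series.

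Glucose phosphate isomerase turns the product into fructose phosphate. *Gpi1* was at 212, 262, 232 and 266 FPKM in the flow-through libraries against 241, 274, 235 and 247 FPKM in the IL-18Rα-hi libraries. The fractions overlapped (log2 fold change 0.04, SE 0.09, limma adjusted p = 0.766), and the value was -0.30 under T-cell scaling, near the median of all genes on that scale.

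Phosphofructokinase is the committed step of glycolysis, and of its 3 subunit genes only *Pfkp* was called without the mouse as a block. *Pfkp* (ENSMUSG00000021196; chromosome 13, 6579768 to 6648777, minus strand), the platelet-type subunit, was at 30.2, 43.8, 41.5 and 45.9 FPKM in the flow-through libraries against 63.1, 73.9, 71.01 and 65.6 FPKM in the IL-18Rα-hi libraries. Every IL-18Rα-hi library was above every flow-through library. *Pfkp* rose from 40.3 ± 6.98 to 68.4 ± 4.92 FPKM (limma log2 fold change of 0.76 with an SE of 0.13, adjusted p = 0.00499), higher in 4 of 4 mice, and the call held without each library in turn. Under T-cell scaling its log2 fold change was 0.43 (adjusted p = 0.0957, in a range from 0.00132 over the alternatives). An exon of *Pfkp* overlaps *Pitrm1* on the opposite strand, whose own mean was lower in the IL-18Rα-hi fraction, from 56.6 ± 20.1 to 25.99 ± 6.10 FPKM, and Cufflinks, run with its default strand setting, does not use strand.

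*Pfkm* (ENSMUSG00000033065; chromosome 15, 98092589 to 98132451, plus strand), the muscle-type subunit, was at 49.1, 13.7, 27.3 and 18.4 FPKM in the flow-through libraries against 17.3, 6.82, 12.3 and 6.14 FPKM in the IL-18Rα-hi libraries. In each mouse the IL-18Rα-hi library was well below its own flow-through, by 0.91 to 1.45 on the log2(FPKM + 1) scale, but the fractions overlapped because mouse 1 was high in both. Limma gave a log2 fold change of -1.23 with an SE of 0.42 and an adjusted p of 0.061, and the adjusted p was 0.000496 with the mouse as a block. Without flow-through library 2 or IL-18Rα-hi library 1 it was 0.0338 and 0.0415, and the highest over the alternatives was 0.15. The erythroid sum and *Pfkm* shared the order of mice in the flow-through, mouse 1 first, then 3, 4 and 2, and the part of erythroid transcripts in the values was not tested. An exon of *Pfkm* overlaps *Senp1* on the opposite strand. *Senp1* was at 24.7 FPKM in the flow-through libraries and 23.7 FPKM in the IL-18Rα-hi libraries and was not called. Its part in the *Pfkm* values was not tested.

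*Pfkl*, the liver-type subunit, lay between these. It was at 36.2, 24.7, 30.7 and 29.1 FPKM in the flow-through libraries against 24.6, 24.8, 25.4 and 22.8 FPKM in the IL-18Rα-hi libraries (log2 fold change -0.28, SE 0.11, limma adjusted p = 0.0902). The fractions overlapped through flow-through library 2, and without it the adjusted p was 0.0255, in a range of up to 0.201 over the alternatives.

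*Pfkfb3* and *Pfkfb4* encode bifunctional enzymes that set the level of the sugar bisphosphate that activates phosphofructokinase. *Pfkfb3* (ENSMUSG00000026773; chromosome 2, 11471433 to 11554077, minus strand) was at 6.14, 11.4, 9.04 and 11.2 FPKM in the flow-through libraries against 12.1, 17.1, 14.3 and 14.6 FPKM in the IL-18Rα-hi libraries, with no overlap. It rose from 9.42 ± 2.42 to 14.5 ± 2.05 FPKM (limma log2 fold change of 0.60 with an SE of 0.18, adjusted p = 0.0425), higher in 4 of 4 mice. The call was lost without flow-through library 3 (adjusted p = 0.0969) and without IL-18Rα-hi libraries 2, 3 or 4 (0.113, 0.0884 and 0.0954), in a range from 0.00372 to 0.212 over the alternatives. *Pfkfb4* was low, at 2.22 ± 0.249 and 2.83 ± 0.944 FPKM, and its fractions overlapped (limma adjusted p = 0.384).

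Aldolase cleaves the fructose bisphosphate into trioses. *Aldoa*, nearly all of the aldolase transcript, was at 357, 336, 366 and 334 FPKM in the flow-through libraries against 372, 402, 379 and 358 FPKM in the IL-18Rα-hi libraries. It was slightly higher in 4 of 4 mice, yet the fractions overlapped (log2 fold change 0.12, SE 0.07, limma adjusted p = 0.236, and -0.22 under T-cell scaling). *Aldoc* (ENSMUSG00000017390; chromosome 11, 78322968 to 78327781, plus strand), best known from brain, was the lowest member of all, at 0.587, 1.44, 0.850 and 1.34 FPKM in the flow-through libraries against 2.22, 1.69, 2.38 and 2.39 FPKM in the IL-18Rα-hi libraries.

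*Aldoc* rose from 1.06 ± 0.406 to 2.17 ± 0.326 FPKM (limma log2 fold change of 0.64 with an SE of 0.17, adjusted p = 0.0243), higher in 4 of 4 mice, but at 0.306% to 0.575% of the aldolase transcript it left the total to *Aldoa*. The adjusted p was 0.0701 without flow-through library 3 and 0.051, 0.0648 and 0.0671 without IL-18Rα-hi libraries 1, 3 and 4, in a range from 0.0183 over the alternatives.

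Triosephosphate isomerase interconverts the trioses. *Tpi1* was at 225, 139, 176 and 132 FPKM in the flow-through libraries against 142, 132, 129.5 and 115 FPKM in the IL-18Rα-hi libraries. The flow-through of mouse 1 was far above the rest, and each IL-18Rα-hi library was below its own flow-through. Limma gave a log2 fold change of -0.34 with an SE of 0.17 and an adjusted p of 0.156, and the adjusted p was 0.0338 with the mouse as a block and ran up to 0.311 over the alternatives.

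The steps that return ATP start with glyceraldehyde phosphate dehydrogenase, the step that makes NADH. *Gapdh* (ENSMUSG00000057666; chromosome 6, 125161715 to 125166467, minus strand) was the most abundant member, ranked 77 of the 12166 genes by mean level. It was at 1412, 1269, 1384 and 1184 FPKM in the flow-through libraries against 1730, 1593, 1573 and 1457 FPKM in the IL-18Rα-hi libraries, which did not overlap. *Gapdh* rose by a small step from 1312 ± 106 to 1588 ± 112 FPKM (limma log2 fold change of 0.28 with an SE of 0.09, adjusted p = 0.0491), higher in 4 of 4 mice, and its log2 fold change was -0.06 under T-cell scaling. Its adjusted p was the highest among the 14 calls. The call was lost without any 1 of the libraries other than flow-through library 1, with adjusted p-values of 0.0879, 0.0854 and 0.102 without flow-through libraries 2, 3 and 4 and of 0.0995, 0.111, 0.102 and 0.0621 without IL-18Rα-hi libraries 1, 2, 3 and 4, in a range from 0.0165 to 0.846 over the alternatives.

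Phosphoglycerate kinase makes the first ATP of the chain. *Pgk1* (ENSMUSG00000062070; chromosome X, 106187100 to 106203699, plus strand) was at 162, 173, 178 and 157 FPKM in the flow-through libraries against 220.2, 219.9, 216 and 190.0 FPKM in the IL-18Rα-hi libraries. The fractions did not overlap, and IL-18Rα-hi library 4 was the lowest of its group. *Pgk1* rose from 167 ± 9.38 to 212 ± 14.5 FPKM (limma log2 fold change of 0.34 with an SE of 0.08, adjusted p = 0.0147), higher in 4 of 4 mice, and held its call without each library in turn, while under T-cell scaling its log2 fold change was -0.0023 (adjusted p = 0.993, in a range from 0.00572).

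Phosphoglycerate mutase moves the phosphate group along the molecule. *Pgam1* was at 85.7, 159, 110.3 and 107 FPKM in the flow-through libraries against 147, 184, 153 and 149 FPKM in the IL-18Rα-hi libraries. It was higher in 4 of 4 mice, but flow-through library 2 was above 3 of the IL-18Rα-hi libraries. Limma gave a log2 fold change of 0.48 with an SE of 0.17 and an adjusted p of 0.0713, with an adjusted p of 0.00748 with the mouse as a block, 0.00917 without flow-through library 2 and up to 0.566 over the alternatives. A near-identical copy added 3.49% to its level, the largest such share of any member, and adding copies changed no call among the 10 members that had any. *Bpgm*, which makes the bisphosphoglycerate of red cells, was at 10.5 ± 1.18 and 10.9 ± 0.465 FPKM (limma adjusted p = 0.656).

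Enolase makes phosphoenolpyruvate, and its 2 isozyme genes moved apart. *Eno1* (ENSMUSG00000063524; chromosome 4, 150236721 to 150248879, plus strand), the main form, was at 318, 335, 355 and 318 FPKM in the flow-through libraries against 471, 477, 443 and 416 FPKM in the IL-18Rα-hi libraries. There was no overlap. *Eno1* rose from 332 ± 17.7 to 452 ± 28.2 FPKM (limma log2 fold change of 0.44 with an SE of 0.08, adjusted p = 0.00464), higher in 4 of 4 mice. *Eno3* (ENSMUSG00000060600; chromosome 11, 70657202 to 70662513, plus strand), the muscle form, was at 10.2, 10.3, 12.7 and 13.2 FPKM in the flow-through libraries against 5.64, 5.79, 7.75 and 7.82 FPKM in the IL-18Rα-hi libraries.

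*Eno3* fell from 11.6 ± 1.57 to 6.75 ± 1.20 FPKM (limma log2 fold change of -0.70 with an SE of 0.14, adjusted p = 0.00766), lower in 4 of 4 mice and by nearly the same amount in each, between -0.75 and -0.65 on the log2(FPKM + 1) scale. Both enolase calls held without each library in turn. Under T-cell scaling the log2 fold change of *Eno1* was 0.11 (adjusted p = 0.709, in a range from 0.00318), whereas *Eno3* kept its call. With *Eno1* at 96.6% of the flow-through total, the enolase sum was higher in every IL-18Rα-hi library, at 343.3 ± 18.1 FPKM in the flow-through libraries against 458.5 ± 27.1 FPKM in the IL-18Rα-hi fraction.

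Pyruvate kinase closes glycolysis with another ATP. *Pkm* (ENSMUSG00000032294; chromosome 9, 59656368 to 59679375, plus strand), the form of most tissues, was at 151, 283, 224 and 239 FPKM in the flow-through libraries against 345, 405, 361 and 355 FPKM in the IL-18Rα-hi libraries. The fractions did not overlap and the flow-through of mouse 1 was lowest. *Pkm* rose from 224 ± 54.9 to 366 ± 26.5 FPKM (limma log2 fold change of 0.74 with an SE of 0.17, adjusted p = 0.0164), higher in 4 of 4 mice, with an adjusted p of 0.0507 without IL-18Rα-hi library 2 and a range from 0.0034 to 0.0964 over the alternatives. The table gives 1 value per gene, so the splice forms of *Pkm* were not separated.

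Lactate dehydrogenase turns pyruvate into lactate and renews the NAD that *Gapdh* needs. *Ldha* was at 606, 481, 612 and 496 FPKM in the flow-through libraries against 628, 570.2, 608 and 533 FPKM in the IL-18Rα-hi libraries, overlapping throughout (log2 fold change 0.10, SE 0.11, limma adjusted p = 0.517, and -0.24 under T-cell scaling). *Ldhb* was at 6.21 ± 2.79 and 7.36 ± 2.55 FPKM (limma adjusted p = 0.563). *Ldha* made up 98.8% of the lactate dehydrogenase transcript in both fractions.

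Lactate crosses the membrane through monocarboxylate transporters, and of the 2 genes only *Slc16a3* was called without the mouse as a block. *Slc16a3* (ENSMUSG00000025161; chromosome 11, 120948480 to 120960868, plus strand), whose product MCT4 is known as an exporter of highly glycolytic cells, was at 4.43, 6.35, 2.94 and 4.27 FPKM in the flow-through libraries against 9.75, 11.6, 8.31 and 8.74 FPKM in the IL-18Rα-hi libraries. Each IL-18Rα-hi library was above every flow-through library. *Slc16a3* rose from 4.50 ± 1.40 to 9.60 ± 1.47 FPKM, a ratio of means of 2.13 and the largest of the 39 members (limma log2 fold change of 0.97 with an SE of 0.19, adjusted p = 0.00746), and held its call without each library in turn. Under T-cell scaling its log2 fold change was 0.68 (adjusted p = 0.0865, in a range from 0.000745). Its promoter stretch above holds ACGTGC at both marked places.

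*Slc16a1* (ENSMUSG00000032902; chromosome 3, 104638668 to 104658462, plus strand), whose product MCT1 carries lactate either way, was the more abundant, at 57.5, 29.2, 44.03 and 30.2 FPKM in the flow-through libraries against 31.2, 18.7, 25.9 and 18.3 FPKM in the IL-18Rα-hi libraries. Each mouse had less in its IL-18Rα-hi library, but the mice lay so far apart that the fractions overlapped. Limma gave a log2 fold change of -0.73 with an SE of 0.25 and an adjusted p of 0.0592, and the adjusted p was 0.000577 with the mouse as a block, 0.0408 without flow-through library 2 and 0.0439 without IL-18Rα-hi library 1, and up to 0.146 over the alternatives. Like the erythroid sum, it was highest in mouse 1 and next highest in mouse 3 in both fractions, and the part of erythroid transcripts was not tested.

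Pyruvate dehydrogenase kinases switch off the complex that commits pyruvate to the mitochondrion. *Pdk1* (ENSMUSG00000006494; chromosome 2, 71873224 to 71903858, plus strand) was at 47.3, 54.8, 55.5 and 52.7 FPKM in the flow-through libraries against 27.7, 24.5, 25.3 and 25.4 FPKM in the IL-18Rα-hi libraries. The libraries of each fraction were tightly grouped, and the lowest flow-through library was far above the highest IL-18Rα-hi library. *Pdk1* fell from 52.6 ± 3.75 to 25.7 ± 1.37 FPKM (limma log2 fold change of -1.002 with an SE of 0.08, adjusted p = 0.00028), lower in 4 of 4 mice, and the adjusted p did not exceed 0.00343 under any alternative. It had the smallest adjusted p of the 39 members.

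*Pdk2* (ENSMUSG00000038967; chromosome 11, 95026258 to 95041354, minus strand) was less abundant, at 7.05, 6.70, 5.44 and 7.81 FPKM in the flow-through libraries against 2.79, 4.34, 3.40 and 3.54 FPKM in the IL-18Rα-hi libraries, again without overlap. It fell from 6.75 ± 0.988 to 3.52 ± 0.639 FPKM (limma log2 fold change of -0.78 with an SE of 0.14, adjusted p = 0.0054), lower in 4 of 4 mice, and held its call under every alternative. *Pdk3*, in contrast, was at 33.5, 27.1, 27.96 and 27.3 FPKM in the flow-through libraries against 39.1, 30.6, 34.8 and 32.2 FPKM in the IL-18Rα-hi libraries.

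Each mouse had more *Pdk3* in its IL-18Rα-hi library, though the flow-through of mouse 1 overlapped the other group. Limma gave a log2 fold change of 0.23 with an SE of 0.10 and an adjusted p of 0.126, with an adjusted p of 0.0229 with the mouse as a block, 0.0423 without flow-through library 1 and up to 0.779 over the alternatives, and the value was -0.10 under T-cell scaling. The sum of the 3 kinases was 88.3 ± 0.585 FPKM in the flow-through libraries against 63.4 ± 4.44 FPKM in the IL-18Rα-hi fraction, without overlap.

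The catalytic subunit genes of pyruvate dehydrogenase were called only with the mouse as a block. *Pdha1* was at 84.4, 71.1, 87.5 and 70.4 FPKM in the flow-through libraries against 70.1, 59.7, 66.9 and 65.8 FPKM in the IL-18Rα-hi libraries, with a narrow gap between the groups. Limma gave it a log2 fold change of -0.25 with an SE of 0.10 and an adjusted p of 0.0856, and the adjusted p was 0.0252 with the mouse as a block and up to 0.21 over the alternatives. *Pdhb* was at 100, 78.8, 89.8 and 83.8 FPKM in the flow-through libraries against 82.2, 73.04, 73.8 and 69.8 FPKM in the IL-18Rα-hi libraries, which overlapped although each mouse had less in its IL-18Rα-hi library (log2 fold change -0.23, SE 0.09, limma adjusted p = 0.0924, and 0.0233 with the mouse as a block). The mitochondrial pyruvate carrier genes were not called in either fit. *Mpc1* was at 88.5, 71.5, 74.4 and 65.7 FPKM in the flow-through libraries against 66.5, 67.2, 69.3 and 62.4 FPKM in the IL-18Rα-hi libraries, and *Mpc2* at 42.8 ± 6.08 and 42.0 ± 4.89 FPKM.

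The pentose phosphate pathway gave 0 of 7 members higher and 1 lower, *Pgls*, with a median log2 fold change of -0.12, where 14.1% of all genes were called higher and 13.7% lower. With the mouse as a block, 0 were higher and 3 lower, where 22.2% and 22.7% of all genes were. In the oxidative arm, *G6pdx*, the rate-limiting dehydrogenase that makes NADPH, was at 54.1, 43.8, 44.3 and 39.9 FPKM in the flow-through libraries against 44.03, 52.95, 41.6 and 40.6 FPKM in the IL-18Rα-hi libraries, with 2 mice up and 2 down. *Pgd*, the next dehydrogenase, was at 84.9, 88.9, 79.4 and 73.8 FPKM and 73.8, 98.5, 72.9 and 77.3 FPKM in the same order, again with 2 mice up and 2 down. Neither was called (limma adjusted p = 0.91 and 0.876).

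*Pgls* (ENSMUSG00000031807; chromosome 8, 71592176 to 71601092, plus strand), the lactonase between these dehydrogenases, was at 123, 113, 95.4 and 116 FPKM in the flow-through libraries against 96.3, 91.7, 74.7 and 88.1 FPKM in the IL-18Rα-hi libraries. The fractions overlapped, because mouse 3 was low in both, but the drop was alike in each mouse, between -0.39 and -0.30 on the log2(FPKM + 1) scale. *Pgls* fell from 112 ± 11.7 to 87.7 ± 9.31 FPKM (limma log2 fold change of -0.35 with an SE of 0.11, adjusted p = 0.0435), and its adjusted p was 0.00387 with the mouse as a block. Without the block the call was lost without flow-through libraries 1, 2 or 4 (0.0761, 0.072 and 0.086) and IL-18Rα-hi libraries 2, 3 or 4 (0.0785, 0.102 and 0.0939), with 0.102 the highest value over the alternatives.

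In the non-oxidative arm, *Tkt*, a transketolase that moves carbon units between sugars, was at 313, 203, 237 and 199 FPKM in the flow-through libraries against 187, 190.4, 172 and 145 FPKM in the IL-18Rα-hi libraries. The fractions did not overlap, and the spread within the flow-through was wide. Limma gave it a log2 fold change of -0.44 with an SE of 0.16 and an adjusted p of 0.0683, with 0.0156 with the mouse as a block and up to 0.167 over the alternatives. *Rpia*, the isomerase that yields ribose phosphate, was at 105, 57.98, 76.2 and 57.96 FPKM and 63.5, 54.4, 51.5 and 43.9 FPKM in the same order (log2 fold change -0.44, SE 0.20, limma adjusted p = 0.131, and 0.0152 with the mouse as a block).

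Both were highest in the flow-through of mouse 1, the library with the highest erythroid sum. In the IL-18Rα-hi fraction *Tkt* was highest in mouse 2, which had the lowest erythroid sum there. *Rpia* was highest in mouse 1, which had the highest. The part of erythroid transcripts was not tested. *Taldo1*, the transaldolase, was the most abundant gene of the route, at 334, 261, 273 and 251 FPKM and 272, 261, 247 and 248 FPKM, with differences from the flow-through of nearly 0 in 2 of the mice (limma adjusted p = 0.407). *Rpe* was at 23.9 ± 2.71 and 25.1 ± 0.739 FPKM (limma adjusted p = 0.581).

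Where a step has several genes, the share of each isozyme within its step does not depend on how a library is scaled. These shares are descriptions without a test. *Pfkp* made up 42.6% ± 11.9 of the phosphofructokinase transcript in the flow-through and 66.2% ± 4.58 in the IL-18Rα-hi fraction, *Pfkm* 26.6% ± 11.5 and 10.2% ± 4.77, and *Pfkl* 30.8% ± 0.546 and 23.6% ± 0.323. None of the 3 shares overlapped between the fractions, whereas the phosphofructokinase sum did, at 82.2 to 115.6 FPKM and 94.5 to 108.8 FPKM. In these bulk libraries the subunit make-up of this step differed more plainly than its total. Flow-through library 1, with the highest erythroid sum, held 42.5% *Pfkm* and 26.2% *Pfkp*. The other flow-through libraries held 16.7% to 27.5% *Pfkm* and 41.7% to 53.2% *Pfkp*. The part of erythroid transcripts in these and the following shares was not tested.

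Shares also separated the fractions at other steps. *Slc16a3* was 10.9% ± 5.35 of the monocarboxylate transporter sum in the flow-through and 29.7% ± 6.93 in the IL-18Rα-hi fraction. Within the pyruvate dehydrogenase kinases, *Pdk1* went from 59.5% ± 3.96 to 40.6% ± 0.916 and *Pdk3* from 32.8% ± 3.58 to 53.8% ± 2.12, so the leading gene of the 3 changed. *Eno3* was 3.38% ± 0.447 and 1.49% ± 0.345 of the enolase sum, and *Slc2a1* 25.0% ± 6.17 and 32.8% ± 1.28 of the glucose transporter sum, all without overlap.

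The hexokinase shares overlapped, with *Hk1* at 84.4% ± 10.5 and 72.5% ± 12.4. *Pklr*, the pyruvate kinase of liver and red cells and not a member, took 47.8% of the pyruvate kinase sum in the flow-through of mouse 1 and 8.89% to 23.6% in the other flow-through libraries, against 1.75% to 9.31% in the IL-18Rα-hi libraries. It was at 68.7 ± 49.6 FPKM in the flow-through libraries against 18.3 ± 13.4 FPKM in the IL-18Rα-hi fraction (log2 fold change -1.88, SE 0.62, limma adjusted p = 0.0515, and 0.000407 with the mouse as a block). *Pklr* and the erythroid sum had the same order of mice in the flow-through.

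**Figure D4:**
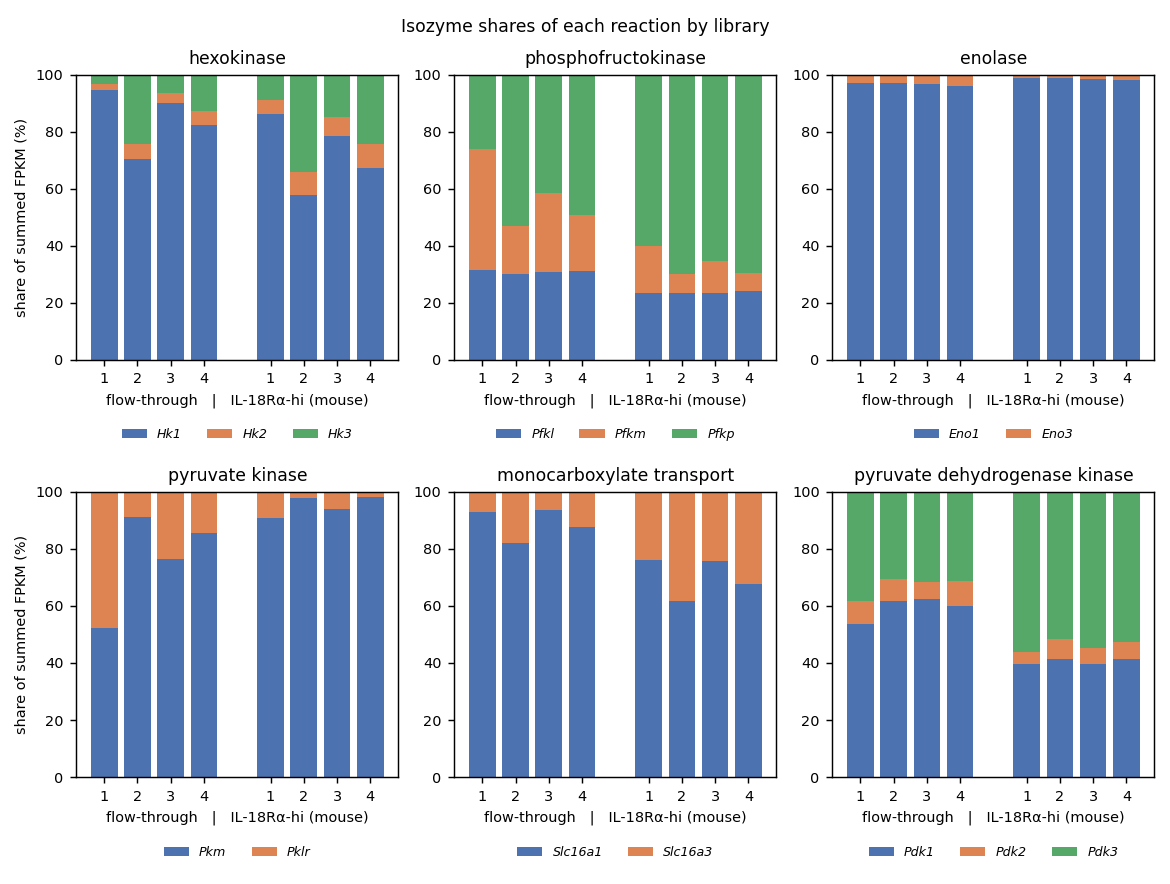
Share of each isozyme (y axis, percent of the summed FPKM of the step) in 6 steps, 1 bar per library, mice 1 to 4 of the flow-through on the left and of the IL-18Rα-hi fraction on the right of each panel. *Pfkp*, *Slc16a3* and *Pdk3* take larger shares in every IL-18Rα-hi library, and *Pklr* takes 47.8% in the flow-through of mouse 1.

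Beyond the members, 69 further genes of glucose metabolism were listed, of which 53 were tested, 6 were called higher (11.3%, against 14.1% of all genes) and 12 lower (22.6%, against 13.7%), or 8 and 19 with the mouse as a block. Their median log2 fold change was -0.04. Of the minor glycolytic genes, *Tigar*, a phosphatase that lowers the activator made by *Pfkfb3*, rose from 4.48 ± 1.09 to 7.80 ± 0.693 FPKM (log2 fold change 0.70, limma adjusted p = 0.0121), while *Pfkfb2* fell from 4.52 ± 0.651 to 2.60 ± 0.500 FPKM (-0.62, adjusted p = 0.0112) and *Adpgk*, an ADP-dependent glucokinase, from 24.4 ± 1.52 to 19.3 ± 2.46 FPKM (-0.33, adjusted p = 0.0456).

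Of the other pyruvate dehydrogenase complex genes, 0 of 6 were higher and 2 were lower. *Dlat*, the acetyl transfer subunit, fell from 30.3 ± 3.27 to 20.3 ± 2.92 FPKM (log2 fold change -0.56, limma adjusted p = 0.0121) and *Dld* from 57.8 ± 8.69 to 43.0 ± 2.70 FPKM (-0.41, adjusted p = 0.0261). Gluconeogenic genes gave 2 lower of 3 tested, *G6pc3* (-0.69, adjusted p = 0.00361) and *Pck2*, the mitochondrial carboxykinase (-1.21, adjusted p = 0.0119). Of the glycogen genes described here, the phosphorylase *Pygb* (0.60, adjusted p = 0.00288) and *Ugp2* (0.67, adjusted p = 0.0215) rose. The gene the deposited table names *Pgm1* (ENSMUSG00000029171) fell (-0.50, adjusted p = 0.0384). The gene it names *Pgm2* (ENSMUSG00000025791) went the other way, from 13.6 ± 2.7 to 16.9 ± 0.68 FPKM. It was higher in 4 of 4 mice without overlap, but was not called (0.31, limma adjusted p = 0.122).

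Of 4 further pentose and ribose phosphate genes, *Rbks* (log2 fold change -0.60, limma adjusted p = 0.0396) and *Prps1*, which makes the activated ribose for nucleotides (-0.45, adjusted p = 0.0306), fell. Of 5 serine synthesis genes, *Shmt2* fell (-0.56, adjusted p = 0.0419), and of 6 NADH shuttle genes, *Mdh1* rose (0.27, adjusted p = 0.023, with -0.06 under T-cell scaling). None of 7 partners and brakes of the transporters was called. With the block 2 were higher (*Slc2a6* and *Emb*) and 3 lower (*Slc16a6*, *Bsg* and *Txnip*). Among the calls named here, those of *Tigar*, *Pfkfb2*, *Dlat*, *G6pc3*, *Pck2*, *Pygb*, *Hif1a*, *Irf4* and *Myc* held without each library in turn. The others were lost without at least 1, with the highest adjusted p without flow-through library 3 for *Adpgk* (0.111), *Dld* (0.075), *Shmt2* (0.112) and *Mdh1* (0.0708), without IL-18Rα-hi library 2 for *Prps1* (0.0871) and without IL-18Rα-hi library 4 for *Rbks* (0.105), *Ugp2* (0.0613) and *Pgm1* (0.101). Under T-cell scaling the calls of *Pfkfb2*, *G6pc3*, *Pck2*, *Irf4* and *Myc* held, and the others named here were lost, among them *Hif1a* (adjusted p = 0.128), *Pygb* (0.26), *Tigar* (0.0813) and *Dlat* (0.0579). *Txnip*, which restrains glucose uptake, was at 207.8 ± 56.6 and 154.5 ± 20.4 FPKM (-0.39, adjusted p = 0.166, and 0.0149 with the mouse as a block).

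Among 8 upstream regulators, 2 rose and 1 fell. *Hif1a*, the oxygen-regulated subunit of hypoxia-inducible factor 1, was at 15.9, 25.7, 21.8 and 22.7 FPKM in the flow-through libraries against 34.1, 34, 36.3 and 34.8 FPKM in the IL-18Rα-hi libraries (log2 fold change 0.69, SE 0.13, limma adjusted p = 0.00755, and 0.128 under T-cell scaling). *Irf4*, a transcription factor induced by T-cell receptor signals, was at 4.74, 10.1, 8.59 and 8.90 FPKM and at 14.8, 19.2, 19.1 and 19.2 FPKM (1.10, SE 0.20, adjusted p = 0.00633). Neither overlapped between fractions, and both were lowest in the flow-through of mouse 1.

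*Myc*, which drives glycolytic and growth genes in activated T cells, went the other way. It was at 96.4, 101, 107 and 106 FPKM in the flow-through libraries against 38, 47, 43.4 and 40.3 FPKM in the IL-18Rα-hi libraries (log2 fold change -1.26, SE 0.08, limma adjusted p = 0.0002), lower in 4 of 4 mice. Its log2 fold change was below that of any member, and it was called under every alternative. *Mtor*, *Rptor* and *Rheb* of the mTOR pathway were not called, with log2 fold changes between -0.04 and 0.04.

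**Figure D5:**
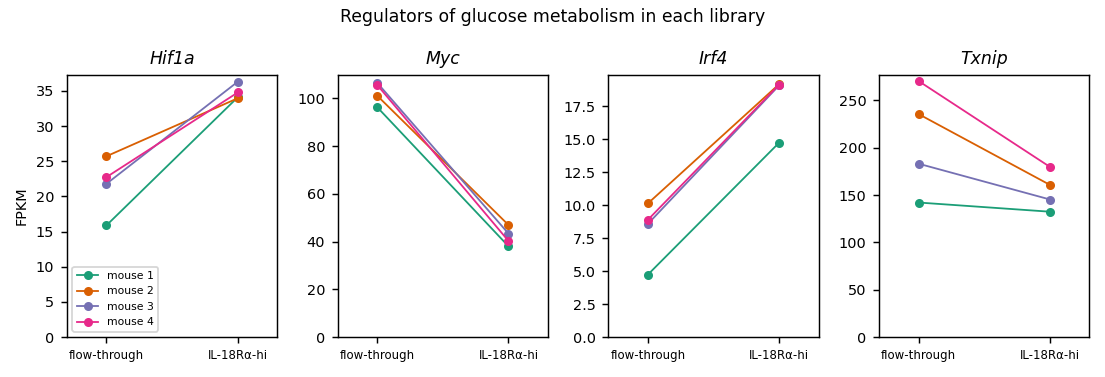
FPKM (y axis, linear from 0, separate scale per panel) of *Hif1a*, *Myc*, *Irf4* and *Txnip* in both fractions, with 1 line per mouse. *Hif1a* and *Irf4* are higher and *Myc* and *Txnip* lower in the IL-18Rα-hi library of all 4 mice, and the *Txnip* fractions overlap.

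Other genes moved with the fractions beside the glycolytic ones. Of 13 proliferation genes, 5 were called higher (10 with the mouse as a block) and 0 lower, and their sum ran from 1081 to 1847 FPKM in the flow-through and from 1571 to 2228 FPKM in the IL-18Rα-hi libraries. Of 7 macrophage and monocyte genes tested, 4 were higher, with sums of 116.0 to 394.9 and 380.4 to 892.6 FPKM, and of 6 NK-cell genes 5 were higher, with sums of 21.6 to 44.1 and 86.9 to 185.4 FPKM. Of 5 B-cell genes tested, *Cd22* was higher and 0 were lower, with sums of 24.4 to 62.9 and 40.5 to 81.9 FPKM. Of 6 naive T-cell genes, *Ccr7* and *Lef1* were lower and 0 were higher. None of the genes of these lists was at 0 in a group mean. Their part in the *Pkm*, *Pfkp*, *Slc16a3* and other glycolytic values was not tested. The paper describes *Ncr1* and *Klrb1c* of the NK-cell list as receptor genes that T cells also raise on activation. That list therefore does not tell NK cells from activated CD8 T cells.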

How the data were processed

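RNA of 8 libraries, 2 fractions from each of 4 mice, had been sequenced as stranded poly(A) libraries. The deposited values are FPKM, which the authors computed per gene after mapping reads to mm10 with TopHat and estimating levels with Cufflinks 2.1.1; the annotation release is not given in the sources used here. Cufflinks does not use strand by default, so overlapping genes on opposite strands cannot be told apart, and 9 members overlap an exon of another gene of at least 1 FPKM. FPKM carries no exact depth, so no count model or counting interval was used; depth was estimated from the smallest steps of low values. Columns of the authors' own comparisons were not used.

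Groups and library numbers came from the labels, which name no mouse, and same-numbered libraries were taken as both fractions of the same mouse. Genes whose mean reached 1 FPKM were tested on log2(FPKM + 1) with limma 3.58.1 in R 4.3.3 (variance trend, no block, Benjamini-Hochberg adjustment over 12166 genes, threshold 0.05), so that fold changes of low genes are understated. Deviations of same-numbered libraries from their group means correlated at 0.66, 0.589, 0.308 and 0.471, so values with the mouse as a block are given where they change a call. Alternatives were the block, a pseudocount of 0.1, all genes with any FPKM or a mean of at least 5 FPKM, median-of-ratios scaling, scaling to 8 CD8 T-cell genes (T-cell scaling), no variance trend and leaving out each library; leaving out both libraries of mouse 1 and adding near-identical copies (BLAST 2.17.0, at least 95% identity over 300 bases) were chosen after seeing the data.

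Gene coordinates are from GENCODE release M21, which held 99.1% of the table's gene identifiers, and promoters are from RefSeq. Library values are given for members that were called, did not overlap between fractions or led their step. Other genes are named where called, at most 5 per list and direction. Some that were not called are named too, among them *Pklr*, *Pgm2* and *Txnip*. The members, gene lists and tests were chosen with earlier results of these data known. The result for 1 gene of the wider glucose metabolism list is not reported here.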

Additional observations from a re-analysis of the deposited data

Results flagged for a closer look

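Within each fraction, the highest and lowest library of every member was compared with the others by Dixon's test at the 95% level. Of 78 groups of 4 libraries, 5 held a library that stood apart, where chance alone gives about 1 in 20 groups, or 3.9. *Pgk1* was at 190.0 FPKM in IL-18Rα-hi library 4, below the other 3. *Pgam1* was at 183.8 FPKM in IL-18Rα-hi library 2, above the other 3. *Pdk3* was at 33.5 FPKM in flow-through library 1, above the others. *Mpc2* (33.7 FPKM) and *Rpe* (19.9 FPKM) were both low in flow-through library 4.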

How the results depend on the processing

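Both fractions came from the same mice. With the mouse as a block (the paired fit), 2705 genes were called higher and 2763 lower. The members gave 12 in each direction and the other glucose-metabolism genes 8 and 19, and it ended no call among the members. Under T-cell scaling the genes numbered 522 and 927, the members 0 and 3, and the other glucose-metabolism genes 1 and 5. Testing all genes with any FPKM gave 6 members higher and 3 lower (7.32% and 5.63% of all genes), and 6 of the other glucose-metabolism genes lower. Leaving out 1 library gave 1124 to 1802 genes higher and 940 to 1781 lower, 5 to 10 members higher and 3 to 7 lower, and 4 to 8 other glucose-metabolism genes higher and 5 to 14 lower. The lowest member counts came without flow-through library 3 or IL-18Rα-hi libraries 2, 3 or 4 (5 higher each) and without IL-18Rα-hi libraries 2 or 4 (3 lower each). Beyond the construction of each alternative (fewer libraries, more genes tested), the cause was not tested. A pseudocount of 0.1 left all 39 members on their side of the threshold; median-of-ratios scaling and the fit without a variance trend each ended 2 calls (*Gapdh* and *Pgls*).

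T-cell scaling turned 12 members below 0: *Slc2a3* (-0.21), *Hk2* (-0.062), *Gpi1* (-0.30), *Pfkfb4* (-0.025), *Aldoa* (-0.22), *Gapdh* (-0.064), *Pgk1* (-0.0023), *Bpgm* (-0.26), *Ldha* (-0.24), *Ldhb* (-0.030), *Pdk3* (-0.10) and *Rpe* (-0.26), and also *Mdh1* (-0.063), where the median of all genes was -0.32. Members near 0 changed sign without 1 library, with log2 fold changes from -0.022 to 0.086 for *Gpi1*, -0.13 to 0.047 for *Mpc2*, -0.10 to 0.064 for *G6pdx*, -0.13 to 0.018 for *Pgd*, -0.00057 to 0.12 for *Bpgm* and -0.0098 to 0.11 for *Rpe*. Without both libraries of mouse 1, *Gpi1* was at -0.0065, *G6pdx* at 0.069 and *Pgd* at 0.031. With 4 mice, a difference that missed the threshold is not shown to be absent, and FPKM without counts limits what can be said of the lowest member, *Aldoc*.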
